A study of Mus musculus with 2 samples.

Results

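Acta2-positive fibroblasts of the mouse heart, 159 cells, were taken out of 11650 fibroblasts and 15964 cells that passed the quality filters in 2 single-cell libraries. A fibroblast was a cell in which Dcn, Col1a1, Col1a2 and Col3a1 together made up at least 0.3% of its unique molecular identifiers (UMIs, 1 per captured transcript) and Ptprc and Pecam1 together at most 1 UMI. A fibroblast entered the set if it held at least 2 UMIs of Acta2, which encodes smooth muscle alpha-actin. It also had to hold no UMI of the mural cell genes Myh11 and Rgs5, and fewer than 3 UMIs of the matrix genes Comp and Thbs4 together. The members were thus chosen by measured UMIs of these genes, so the levels of these 11 genes are descriptions and were left out of every count of genes below. Of the members, 29 came from the sham library and 130 from the TAC library.

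The libraries held non-cardiomyocytes of male C57BL6/J wildtype mice on day 20 after sham surgery or after transverse aortic constriction (TAC), a surgical narrowing of the aortic arch that makes the heart pump against a higher pressure. There was a single library for each group, and how many hearts went into it is not stated in the labels. Hearts were digested with collagenases and a protease, cardiomyocytes were left to settle, and live cells that excluded DAPI were sorted before capture on a droplet platform that reads the 3' end of transcripts. With 1 library per group no test across samples was possible, so intervals cover counting error only and no difference has a replicate check. The sham library held 42490230 UMIs in 8426 barcodes and the TAC library 96003109 UMIs in 8901, with 7964 and 8000 cells passing, and 6227 and 5423 of these in the fibroblast gate. The libraries shared 15 barcode sequences, none of them a member of the set. Fibroblasts were read more deeply after TAC, with a median of 12072 UMIs per cell against 5002 after sham. Each member was therefore set beside the 5 fibroblasts of its own library with 0 Acta2 UMIs, and the same limits on the other genes, whose total UMIs were nearest. The 130 TAC members had a median of 14185 UMIs and their 650 matched cells 14189, and the 29 sham members 5904 and their 145 matched cells 5905.

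Fibroblasts of an injured heart can become myofibroblasts, cells that lay down matrix and contract. They build stress fibres, bundles of actin and myosin tied to the matrix at focal adhesions, and smooth muscle alpha-actin in these bundles is the classical mark of the state. TGF-beta signalling and mechanical tension are known to drive it, in part through serum response factor and its actin-sensing partners, which bind the CArG box, a short element of muscle and cytoskeletal gene promoters. Of the 3 genes that the name myofibroblast-like rested on, Acta2 fixed the choice, Tagln was higher in the members, and Cthrc1, a secreted protein of activated cardiac fibroblasts, was not. Cthrc1 gave 4 UMIs in the 130 TAC members, or 2.08 CPM (counts per 1000000 UMIs), against 24 UMIs and 2.52 CPM in the matched cells. It gave 0 UMIs in the 29 sham members, and Cnn1, the calponin of mature smooth muscle, gave 0 UMIs in the members of both libraries. Cthrc1 in sham and Cnn1 in both libraries also gave 0 UMIs in the matched cells, so these zeros do not set the members apart. The limit on Comp and Thbs4 also left out Acta2-positive cells with more Cthrc1, as given below. The cells are called Acta2-positive fibroblasts here, after the gene that chose them. Their fibroblast identity showed in Pdgfra, a growth factor receptor of fibroblasts, with a UMI in 117 of 130 TAC members and 19 of 29 sham members, and in Tcf21, a transcription factor of resident cardiac fibroblasts, seen in 81.5% and 79.3%.

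The promoters of Acta2 and of 4 other actin-linked genes are shown because they carry CArG or CArG-like boxes and encode contractile and stress fibre proteins measured below. Each is given as the 250 bases before each annotated start (RefSeq, GRCm38.p6). Capitals mark each CArG box and each CArG-like box, a CArG box with a single G or C among its central A or T bases. The 6 windows run 5′ to 3′ towards the start of the gene.
Acta2, chr19:34255374-34255623, minus strand: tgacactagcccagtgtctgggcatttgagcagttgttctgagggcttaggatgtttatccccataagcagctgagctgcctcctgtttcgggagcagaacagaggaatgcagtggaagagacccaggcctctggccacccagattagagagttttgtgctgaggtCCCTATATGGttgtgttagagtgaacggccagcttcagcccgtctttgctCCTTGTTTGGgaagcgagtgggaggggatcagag
Cnn2, chr10:79988350-79988599, plus strand: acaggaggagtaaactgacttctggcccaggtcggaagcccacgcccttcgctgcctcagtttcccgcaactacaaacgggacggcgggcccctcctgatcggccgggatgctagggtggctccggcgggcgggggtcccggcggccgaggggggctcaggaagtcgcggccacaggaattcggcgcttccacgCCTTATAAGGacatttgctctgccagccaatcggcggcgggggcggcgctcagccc
Myl9, chr2:156775214-156775463, plus strand: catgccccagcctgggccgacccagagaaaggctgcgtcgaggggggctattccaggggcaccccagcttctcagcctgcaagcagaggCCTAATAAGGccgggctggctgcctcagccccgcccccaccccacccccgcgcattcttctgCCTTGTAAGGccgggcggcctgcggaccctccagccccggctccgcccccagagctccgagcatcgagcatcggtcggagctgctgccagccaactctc
Fhl2 first start, chr1:43196762-43197011, minus strand: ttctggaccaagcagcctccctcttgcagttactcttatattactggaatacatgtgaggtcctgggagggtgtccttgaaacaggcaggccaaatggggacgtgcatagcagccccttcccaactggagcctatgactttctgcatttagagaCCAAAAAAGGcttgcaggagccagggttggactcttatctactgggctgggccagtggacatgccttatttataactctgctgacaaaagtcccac
Fhl2 second start, chr1:43163962-43164211, minus strand: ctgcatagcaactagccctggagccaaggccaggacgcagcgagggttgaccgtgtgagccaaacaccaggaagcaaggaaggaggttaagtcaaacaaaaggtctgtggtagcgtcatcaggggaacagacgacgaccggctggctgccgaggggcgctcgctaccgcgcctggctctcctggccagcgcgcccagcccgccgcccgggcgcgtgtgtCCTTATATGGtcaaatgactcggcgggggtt
Actg1, chr11:120348496-120348745, minus strand: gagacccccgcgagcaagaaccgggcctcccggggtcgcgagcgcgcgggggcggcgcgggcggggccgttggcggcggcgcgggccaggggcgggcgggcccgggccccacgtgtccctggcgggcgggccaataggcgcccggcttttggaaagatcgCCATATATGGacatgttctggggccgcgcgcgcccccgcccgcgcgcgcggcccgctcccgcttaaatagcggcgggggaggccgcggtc

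Acta2 carried 2 CArG-like boxes, 84 and 34 bases before its start. Cnn2, which encodes the broadly expressed calponin, carried a CArG box 56 bases before its start. Fhl2, a LIM-domain partner of focal adhesions, had a box at each of its 2 starts, 96 and 31 bases before them. Myl9, the regulatory myosin light chain, had a CArG box 161 bases and a CArG-like box 99 bases before its start, and Actg1, cytoplasmic gamma-actin, a box 90 bases before. Of 37 contractile, actin and stress fibre genes listed, Acta2 not among them, 32 had a promoter in the table and 9 of these held a CArG box, 28.1%. Over all 27025 genes with a promoter of the same 300 bases, 50 of them after the start, the share was 1.81%, and a CArG-like box was in 9.38% of the list and 9.70% of all genes. CATTCC, the core of the MCAT element of muscle genes, searched on both strands, was in 34.4% of the listed genes and 16.6% of all genes. These are matches of letters, with no binding measured. The listed genes with a CArG box that are not shown were Acta1, Actc1, Lima1, Myl6 and Vcl. Of these, Acta1, Actc1 and Lima1 were lower in TAC members than in matched cells, and Myl6 and Vcl higher, as given below. Tagln had no promoter among those searched. Whether the box goes with a higher level was not tested.

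Acta2-positive fibroblasts made up 0.466% of sham fibroblasts (95% exact Clopper-Pearson interval 0.312 to 0.668) and 2.40% of TAC fibroblasts (2.01 to 2.84). The share was 5.15-fold higher in the TAC library, with an exact interval of 3.42 to 7.99. A deeper cell reaches 2 UMIs more easily, so UMIs were also drawn at random down to 3800 per cell. This dropped 1188 sham and 245 TAC fibroblasts with fewer. At that depth 15 of 5039 sham fibroblasts (0.298%) and 57 of 5178 TAC fibroblasts (1.10%) met the rule, a ratio of 3.70 (2.07 to 7.03). Free RNA in the droplets can also give Acta2 UMIs, and macrophages, which should lack the gene, measure it. In the TAC library 9 of 992 cells of a macrophage gate (0.907%, median 10416 UMIs) and 7 of 829 of an endothelial gate (0.844%, median 6500 UMIs) held at least 2 Acta2 UMIs, against 262 of 5423 fibroblasts (4.83%). Thinned to 3800 UMIs, these shares were 0.104% (exact interval 0.00263 to 0.577), 0.608% (0.166 to 1.55) and 1.64% (1.31 to 2.03). The thinned TAC share of members, 1.10% (0.835 to 1.42), lies within the interval of the endothelial gate. At this depth the TAC members were above the macrophage gate but not distinguishable from the endothelial gate. The limits on Myh11, Rgs5, Comp and Thbs4 were applied to the members and not to the endothelial gate. Without these limits the thinned TAC fibroblasts, at 1.64%, lay above the endothelial interval of 0.166 to 1.55, though their own interval of 1.31 to 2.03 overlapped it. In the sham library the macrophage gate gave 1 of 903 cells (0.111%) before thinning, against 30 of 6227 fibroblasts (0.482%), and 0 of 684 after it, which allows a share of up to 0.439% by a floor of 3 counts and 0.538% by the exact interval. The sham share after thinning, 0.298%, is under both limits, so at this depth it was not distinguishable from background. A gate of mural cells, which make smooth muscle alpha-actin in the healthy vessel wall, had the highest share, with 27 of 65 TAC cells (41.5%) at 2 Acta2 UMIs or more.

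**Figure D1:**
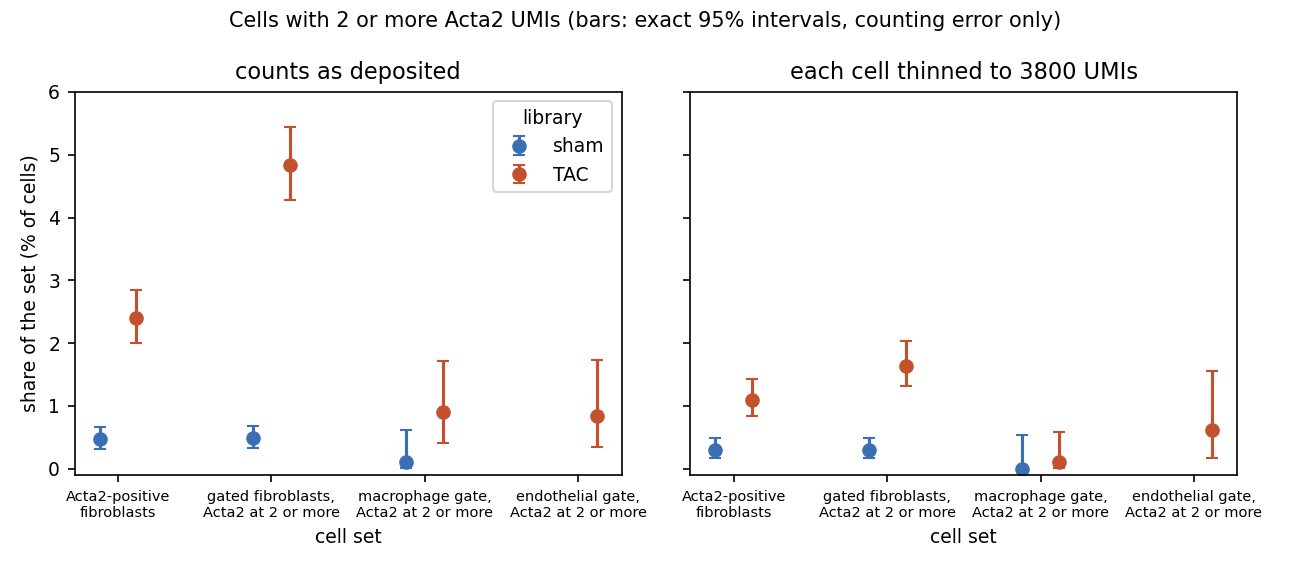
Share of cells with 2 or more Acta2 UMIs, in percent, in the set described here and in 3 gates, with counts as deposited on the left and each cell thinned to 3800 UMIs on the right. Points are the single sham (blue) and TAC (red) library and bars exact 95% intervals for counting error. The TAC fibroblasts sit above the macrophage and endothelial gates in the left panel. The sham endothelial gate, 93 cells with none at 2 UMIs, is not drawn.

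The limits on the other genes took out more TAC than sham fibroblasts. Of 262 TAC fibroblasts with at least 2 Acta2 UMIs, 103 held 3 or more UMIs of Comp and Thbs4, 32 held Myh11 or Rgs5, and 3 held both. Of 30 such sham fibroblasts, 1 was taken out. Among TAC fibroblasts without Myh11 or Rgs5, Acta2 reached 2 UMIs in 100 of 1120 cells rich in Comp and Thbs4 (8.93%, 7.32 to 10.8) and in 130 of 3848 other cells (3.38%, 2.83 to 4.00). Cthrc1 also divided along that line. It stood at 195 CPM in the 100 Acta2-positive cells rich in Comp and Thbs4 and at 64.2 CPM in the 880 Acta2-zero cells rich in them, against 2.08 CPM in the 130 members. No test of these differences was possible in 1 library.

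Acta2 was unevenly spread over the members. In the TAC library the lowest, median and highest member held 2, 3 and 59 Acta2 UMIs, and 56 members held exactly 2. The 38 members with 5 or more UMIs held 63.7% of the 653 Acta2 UMIs, and the 5 members with 20 or more held 27.4%. In the sham library the lowest, median and highest were 2, 2 and 19 UMIs, and 15 of 29 members held exactly 2. Summed, Acta2 stood at 340 CPM in TAC members and 636 CPM in sham members. A minimum of 2 UMIs is a higher level in a shallow cell than in a deep one, so these levels are set partly by the rule.

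Tagln, which encodes transgelin, an actin cross-linking protein of smooth muscle, showed the largest ratio in the TAC library. Its summed level was 250 CPM in the 130 members (480 UMIs) and 38.1 CPM in the 650 matched cells (362 UMIs), a ratio of 6.57 with an exact interval of 5.72 to 7.55, or 2.68 on the log2(CPM + 1) scale used from here on. A UMI of it was seen in 53.8% of members and 17.5% of matched cells. The lowest, median and highest member held 0, 1 and 83 UMIs, and without the highest cell the log2 ratio was 2.43. Tagln (chr9:45929619-45936058, minus strand, mm10) overlaps the last 108 bases of Pcsk7 and 3627 bases of the predicted gene Gm48529, both on the opposite strand, and how strand was used in counting is not given in the sources used here. Across all genes, 3492 reached 50 CPM in members or matched cells. Of these, 14 were at least 2-fold higher in the members (0.401%) and 15 at least 2-fold lower (0.43%), with a median log2 ratio of 0.06. The median gene was thus itself slightly above 0, so more genes lay above 0 than below it. The exact share of all genes above 0 is not given here. The counts of genes above 0 given below therefore have only this median as background.

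The other contractile genes leaned the same way by less. Of 15 listed, 8 were measured at 50 CPM or more, 2 were at least 2-fold higher, none was lower, and all 8 were above 0, with a median log2 ratio of 0.48. Tpm2, beta-tropomyosin, which lies along the actin filament, stood at 127 against 54.3 CPM, a ratio of 2.33 (1.99 to 2.72). Myl6, the essential myosin light chain, stood at 1410 against 857 CPM (log2 ratio 0.72), and Tpm1, alpha-tropomyosin, at 220 against 150 CPM (0.55). Csrp1, Ppp1r14a, Cald1 and Smtn had log2 ratios of 0.41, 0.28, 0.25 and 0.17. Myl9 lay under the level at which genes were counted, at 36.4 against 11.6 CPM, a ratio of 3.15 (2.30 to 4.29). Among the listed smooth muscle markers, Cnn1 and Actg2, the enteric smooth muscle actin, gave 0 UMIs in TAC members. Cnn1 gave 0 UMIs in the matched cells too. Des, desmin, gave 37 UMIs in all TAC members, or 19.3 against 10.2 CPM.

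Stress fibre and focal adhesion genes were 3 of 14 at least 2-fold higher, 0 lower and 13 above 0, with the same median of 0.48. Cnn2 stood at 171 against 70.3 CPM, a ratio of 2.44 (2.13 to 2.78), and was seen in 75.4% of members against 52.6% of matched cells. Actn1, alpha-actinin, which bundles actin at adhesions, stood at 141 against 65.4 CPM (2.16, 1.86 to 2.49), and Fhl2 at 106 against 49.2 CPM (2.16, 1.82 to 2.55). Tpm4, Flna and Tgfb1i1, encoding a tropomyosin, filamin A and the adhesion protein Hic-5, had log2 ratios of 0.69, 0.68 and 0.54. Vcl, vinculin, had 0.53, while Lima1 stood at 116 against 121 CPM and Tln1, talin, at 110 against 109 CPM. Both cytoplasmic actins were higher, Actg1 at 3668 against 2136 CPM (log2 ratio 0.78) and Actb at 5851 against 4158 CPM (0.49). The skeletal and cardiac alpha-actins Acta1 and Actc1 gave 1 and 10 UMIs in all TAC members, 0.521 against 1.89 CPM and 5.21 against 7.05 CPM.

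**Figure D2:**
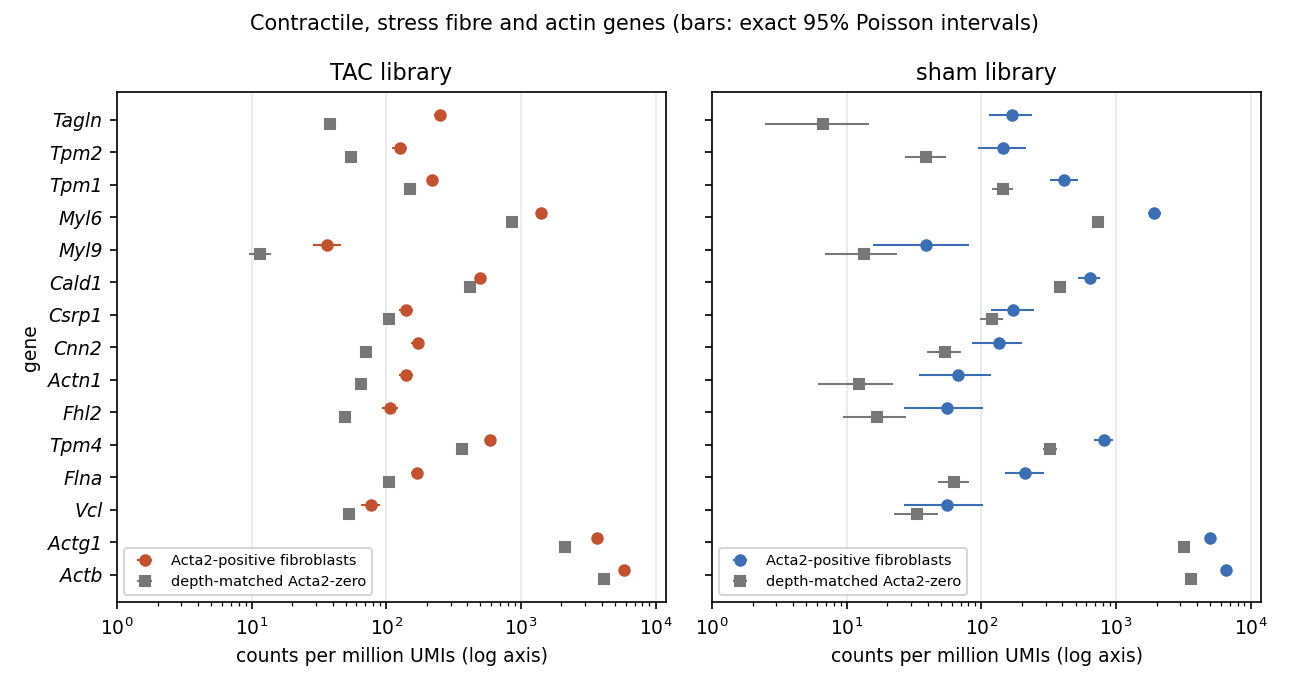
Summed level of 15 contractile, stress fibre and actin genes in CPM (log axis) in the TAC library on the left and the sham library on the right. Circles are Acta2-positive fibroblasts, grey squares depth-matched Acta2-zero fibroblasts of the same library, and bars exact 95% Poisson intervals. Each of the 15 circles lies right of its square in both libraries, and the gap is widest for Tagln at 250 against 38.1 CPM in TAC and 167 against 6.70 CPM in sham.

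Outside the contractile apparatus, the genes past 2-fold in TAC members included intermediate filament, hormone and growth factor genes. Nes encodes nestin, an intermediate filament of progenitor and activated cells, and stood at 75.5 against 22.4 CPM, a ratio of 3.37 (2.71 to 4.18), seen in 32.3% against 17.8% of cells. Dio2, the deiodinase that makes active thyroid hormone, stood at 67.2 against 27.3 CPM (2.46, 1.97 to 3.05). Pgf, placental growth factor, a VEGF-family ligand, stood at 72.4 against 31.9 CPM (2.27, 1.84 to 2.79). Tubb2b, a beta-tubulin, stood at 105 against 50.9 CPM (2.07, 1.75 to 2.44). Inhba, the activin A subunit, and the histone gene Hist1h2bc had log2 ratios of 1.29 and 1.16, but without the highest cell of each these were 0.60 and 0.58, so 1 cell carried each past 2-fold. With no limit on Comp and Thbs4 in either set, Dio2 and Pgf stood at 0.60 and 0.44, while Nes stayed past 2-fold in every alternative run.

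Most matrix and activation genes measured were higher in the members without passing 2-fold, with an exception. Loxl2, a lysyl oxidase that cross-links collagen, stood at 238 against 117 CPM, a ratio of 2.03 (1.81 to 2.26), and at 0.98 on the log2 scale without its highest cell. Of 14 measured genes of activated cardiac fibroblasts 0 were past 2-fold, yet 12 were above 0, with a median of 0.37. Cilp and Lox were below 0, at -0.15 and -0.02, and Meox1 stood at 0.06, level with the median over all genes. Postn, periostin, the matricellular protein most used to mark activated cardiac fibroblasts, stood at 2108 against 1058 CPM, a ratio of 1.99 (1.92 to 2.07). It was seen in 93.1% of members and 81.2% of matched cells. Ltbp2, a latent TGF-beta binding protein family member, stood at 130 against 76.5 CPM (log2 ratio 0.75), Aspn, asporin, at 675 against 433 CPM (0.64), and Fstl1, a secreted follistatin-like protein, at 2019 against 1328 CPM (0.60). Timp1, a metalloproteinase inhibitor, had 0.81, but -0.16 without the 1 member that held most of it. Collagens outside the rule were 0 of 12 past 2-fold and 11 above 0, with a median of 0.19 beside 0.06 over all genes. Col8a1, a short-chain collagen, was the highest at 0.53.

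Genes of the TGF-beta pathway were described by role, and the roles were not tested against each other. Among ligands and latency proteins 1 of 7, Inhba, was past 2-fold, with a median of 0.13. Tgfb1, the ligand most tied to cardiac fibrosis, stood at 227 against 153 CPM, a ratio of 1.48 (1.33 to 1.65). Tgfb2 and Tgfb3 had log2 ratios of 0.06 and 0.14. Receptors and SMADs were 0 of 8 past 2-fold, with 4 above 0 and a median of -0.05, and Tgfbr3, the co-receptor betaglycan, was the lowest at -0.38. Among listed targets of the pathway 0 of 8 were past 2-fold and 6 above 0, with a median of 0.20 and Ctgf, connective tissue growth factor, the highest at 0.43.

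Among the genes lowest in TAC members against matched cells, Vegfd, a lymphatic growth factor, stood at 15.1 against 53.2 CPM, a ratio of 0.284 (0.188 to 0.413). Ptn, pleiotrophin, stood at 188 against 478 CPM (0.394, 0.353 to 0.439), Bmper, a BMP-binding protein, at 25.0 against 66.5 CPM (0.376, 0.274 to 0.505), and Fgl2, a secreted fibrinogen-like protein, at 46.9 against 131 CPM (0.359, 0.286 to 0.445). Gfra1, a GDNF receptor, Slit3, a guidance ligand, and Podn, a small leucine-rich proteoglycan, had log2 ratios of -1.11, -1.02 and -0.99. Myc and the carboxylesterase gene Ces1d had -1.04 and -1.12. Cxcl14, a chemokine, stood at 593 against 1213 CPM (-1.03). Of 7 measured chemokine and cytokine genes 2 were at least 2-fold lower, 0 higher and 0 above 0, with a median of -0.34. Genes of the steady-state fibroblast were 0 of 12 past 2-fold but 10 of 12 below 0, with a median of -0.29. The lowest were Hsd11b1, which activates glucocorticoids, at 241 against 426 CPM, and Dpep1, a dipeptidase, at 710 against 1255 CPM. With no limit on Comp and Thbs4 in either set, Fgl2, Ptn and Vegfd stood at -0.21, -0.68 and -0.84. Dcn, used by the rule, stood at 15478 against 19093 CPM.

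The antigen presentation gene Cd74 and the chemokine Ccl2 were also lower, at log2 ratios of -3.19 and -1.15. Both were concentrated in few matched cells. Cd74 stood at -0.46 once cells called doublets were left out and at -0.39 once cells with a UMI of 10 macrophage or endothelial genes were left out, and Ccl2 then stood at 0.030. Cd74 was at 15246 CPM in the macrophage gate of the library.

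**Figure D3:**
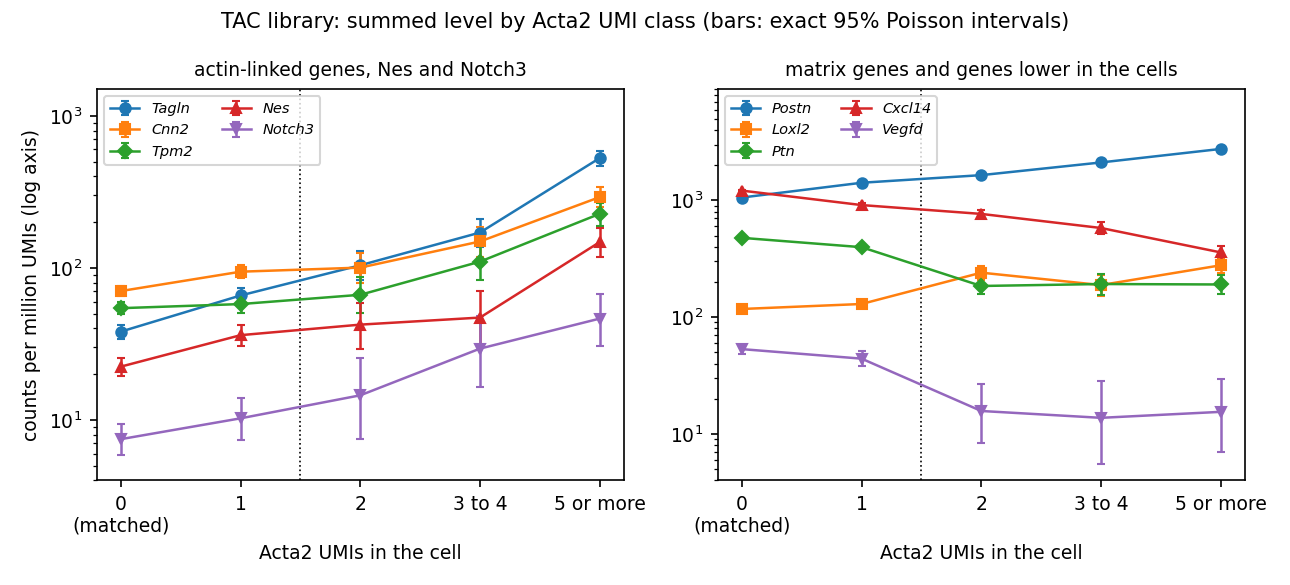
Summed level in CPM (log axis) of 10 genes in the TAC library by the number of Acta2 UMIs in the cell, from matched cells with 0 to members with 5 or more. The dotted line separates cells outside the set from the members and bars are exact 95% Poisson intervals. Tagln goes from 38.1 to 527 CPM and Postn from 1058 to 2759 CPM across the classes, and Cxcl14 from 1213 to 359 CPM.

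Within the TAC library the levels followed the number of Acta2 UMIs in a cell. Tagln stood at 38.1 CPM in matched cells with 0 Acta2 UMIs, 65.8 in the 306 cells just outside the set with 1, 104 in the 56 just inside with 2, 171 in the 36 with 3 to 4, and 527 in the 38 with 5 or more. Postn went through 1058, 1416, 1646, 2114 and 2759 CPM over the same classes, and the sum of the contractile list through 1787, 2027, 2282, 2725 and 3787 CPM. Nes was at 47.1 CPM or less up to the class of 3 to 4 UMIs and at 148 CPM in the highest class. Cnn2 was at 100 CPM in cells with 2 Acta2 UMIs and 292 CPM in those with 5 or more. Ptn, by contrast, was at 397 CPM in cells with 1 Acta2 UMI, and at 185, 192 and 190 CPM in the 3 member classes. Median depth differed little between these member classes, from 13629 to 14640 UMIs. Among TAC members a Tagln UMI was seen in 29 of 38 with 5 or more Acta2 UMIs (76.3%) and 41 of 92 with 2 to 4 (44.6%).

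Tagln and Postn were also counted cell by cell. A UMI of both Tagln and Postn was seen in 67 of 130 TAC members (51.5%, 42.6 to 60.4) and in 105 of 650 matched cells (16.2%, 13.4 to 19.2). Each gene was also seen more often on its own, Tagln in 53.8% against 17.5% and Postn in 93.1% against 81.2% of cells, and whether they met in a cell beyond that was not tested. Postn without Tagln was seen in 54 members (41.5%), Tagln without Postn in 3, and neither in 6. In the sham library both were seen in 3 of 29 members and 0 of 145 matched cells, and neither in 16 members and 134 matched cells.

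The sham members showed the same lean in contractile genes from far fewer UMIs. The 29 cells held 179131 UMIs in all, and of 4065 genes at 50 CPM or more 234 were at least 2-fold higher (5.76%) and 177 at least 2-fold lower (4.35%). Contractile genes were 4 of 8 past 2-fold, 0 lower and 8 above 0, with a median log2 ratio of 1.06, against a median of 0.12 over all genes. Tagln stood at 167 against 6.70 CPM (30 against 6 UMIs), a ratio of 25.0 (10.2 to 73.5), and at 3.54 against 4.45 on the log2 scale without the 1 member that held 15 of its UMIs. Tpm2 stood at 145 against 39.1 CPM (3.71, 2.15 to 6.35), Tpm1 at 413 against 144 CPM (2.87, 2.13 to 3.85) and Myl6 at 1926 against 733 CPM (2.63, 2.30 to 3.00). Stress fibre genes were 7 of 15 past 2-fold, 0 lower and 15 above 0, with a median of 0.80. Actn1 stood at 67.0 against 12.3 CPM from 12 and 11 UMIs (5.45, 2.20 to 13.6), and Flna at 212 against 62.5 CPM (3.39, 2.19 to 5.21). These sums rested on few cells, as 9 of 29 sham members held a Tagln UMI and 10 a Tpm2 UMI.

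Activation genes were 6 of 11 past 2-fold in sham members, 0 lower, with a median of 1.24. Meox1, a homeobox factor of fibroblast activation, stood at 508 against 136 CPM (3.73, 2.81 to 4.93). It was seen in 18 of 29 members, more than Postn or Cilp. Postn stood at 508 against 53.6 CPM (9.48, 6.61 to 13.7), but its 91 UMIs came from 7 members, 95.6% of them from 5. Cilp, a cartilage matrix protein also made by activated fibroblasts, stood at 396 against 19 CPM, with 46 of 71 UMIs in 1 of 3 members that had any. Steady-state genes were 0 higher and 4 of 15 at least 2-fold lower, with a median of -0.67. Hsd11b1 stood at 246 against 755 CPM and Dpep1 at 636 against 1465 CPM. Alkal2, a receptor tyrosine kinase ligand, gave 0 UMIs in members against 71 in matched cells, at least 4.73-fold lower with a floor of 3 UMIs over the set. Nmb, a neuropeptide gene, and Mmp3, a metalloproteinase gene, had log2 ratios of -3.37 and -2.93, and Mmp3 was at 0.89 when only the nearest cell per member was used. Lower levels of H2-Aa, Cd74 and Lyz2 went with macrophage markers in the matched cells. Their 8 macrophage markers summed to 629 CPM, 149 of 563 UMIs in 1 cell, against 39.1 CPM in the members. Without cells holding macrophage or endothelial UMIs Lyz2 stood at 0.20, Cd74 at -0.13 and H2-Aa at -0.90.

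Ccl2, a monocyte chemoattractant, had the largest ratio in the sham library among genes with at least 30 UMIs seen in at least 10% of cells, at 3601 against 83.7 CPM (645 against 75 UMIs). The 3 highest members held 296, 116 and 108 of these UMIs, and 10 of 29 held any. In TAC members Ccl2 was at 61.4 CPM, with 118 UMIs in 11 of 130 cells, 67 of them in 1.

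TAC members were then set against sham members, beside the same ratio in the matched Acta2-zero cells. Of 4004 genes 220 were at least 2-fold higher in TAC members (5.49%) and 243 lower (6.07%), and between matched cells 135 of 3718 were higher (3.63%) and 109 lower (2.93%). Contractile genes were 0 of 8 past 2-fold either way, with 1 above 0 and a median of -0.32 against -0.13 over all genes. The rule took sham members at a higher summed Acta2 level than TAC members, as given above. The contractile sum and Postn rose with Acta2 UMIs within the TAC library, so their ratios between the member sets depend partly on the rule. Tagln had a log2 ratio of 0.57 in members and 2.34 in matched cells, Tpm2 -0.20 and 0.46, and Cnn2 0.35 and 0.39. Activation genes were 8 of 14 at least 2-fold higher and 0 lower in members, with a median of 1.07, and 10 of 14 with a median of 1.78 in matched cells. Ltbp2 and Lox, a lysyl oxidase, had log2 ratios of 3.42 and 3.42 in members and 3.14 and 1.98 in matched cells, and Ctgf 2.74 and 2.87. Postn had 2.05 in members and 4.28 in matched cells. The Ltbp2 values rested on 2 UMIs in the sham members and 7 in their matched cells. Other collagens were 4 of 12 past 2-fold and 12 above 0 in members (median 0.77), and 7 of 12 in matched cells (1.09). Col4a2, a basement membrane collagen, and Col16a1 were the highest in members, at 1.57 and 1.42.

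Some of the genes furthest apart had 0 UMIs in the 29 sham members. Rasl11b, a small GTPase gene, was at least 5.04-fold higher in TAC members, Cyb561, a cytochrome gene, at least 4.38-fold, Dio2 at least 4.01-fold and Pdzrn3, a ubiquitin ligase gene, at least 3.42-fold. Mmp3, Ssc5d, Serpina3n and Apod had log2 ratios of 3.69, 3.50, 3.32 and 3.31 in members, from 2, 1, 5 and 7 sham UMIs, and 1.42, 1.06, 2.73 and 3.00 in matched cells. Lower in TAC members were stress and early response genes, Atf3 at -3.14, Gadd45g at -3.11 and Ier5 at -2.95, with -1.75, -2.72 and -1.74 in matched cells. Immediate early genes were 3 of 16 at least 2-fold lower and 1 higher in members (median -0.67), and 4 lower and 1 higher in matched cells (-0.60). Ackr3, a scavenging chemokine receptor, Efhd1, Myoc, Ces1d and Sema3c had -2.86, -2.76, -2.66, -2.49 and -2.47, beside -3.02, -2.44, -2.13, -1.85 and -2.18 in matched cells. Ccl7, another monocyte chemoattractant, had -5.39 from 78 sham and 18 TAC UMIs.

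**Figure D4:**
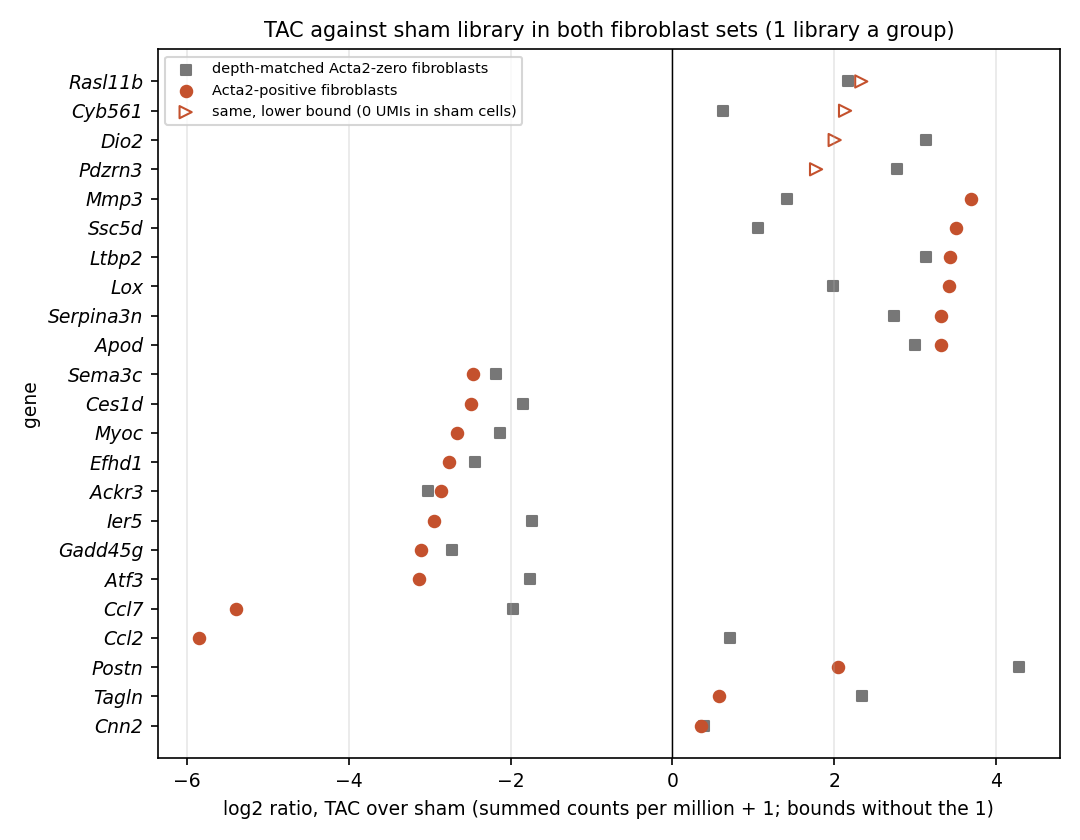
Log2 ratio of the TAC over the sham library for 23 genes, as red circles in Acta2-positive fibroblasts and grey squares in depth-matched Acta2-zero fibroblasts, 1 library a group. Open triangles are lower bounds for genes with 0 UMIs in sham members. Ccl2 lies at -5.85 in members and 0.71 in matched cells, and Postn at 2.05 and 4.28.

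The ratio of members to matched cells was then compared between the libraries, among genes with at least 30 UMIs in both matched sums. This difference was not tested. Ppp2r5a, Chd1 and Esyt1 had log2 ratios of 0.16, 0.16 and 0.31 in TAC and -2.70, -2.41 and -2.20 in sham, where the members held 2 UMIs of each. Cyb561 had 0.23 in TAC, and 0 UMIs in sham members against 36 in their matched cells. Postn and Meox1 had lower ratios in TAC than in sham, by -2.23 and -1.83 on the log2 scale. Their levels in matched cells were 1058 and 764 CPM in TAC against 53.6 and 136 CPM in sham. Irf7, an interferon response factor, differed by -1.91, and its sham log2 ratio of 1.66 was -0.96 without the highest cell.

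Markers of other cell types were compared over whole lists. The 12 pericyte markers summed to 454 CPM in TAC members and 385 in matched cells, against 15273 in the mural gate, and Higd1b was at 0. Notch3, a receptor that marks mural cells, was the exception, at 28.1 against 7.47 CPM, a ratio of 3.77 (2.59 to 5.44), and 26 of 130 members held a UMI of it against 57 of 650 matched cells. Of those 26, 24 also held Pdgfra, beside 117 of all 130 TAC members. Among the 57 matched cells with Notch3, 56 held Pdgfra. Members and matched cells holding any of 9 mural genes beyond Myh11 and Rgs5, Notch3 among them, were then left out. Tagln, Cnn2 and Nes then stood at 2.36, 1.28 and 1.40 on the log2 scale. Loxl2, Tubb2b, Pgf and Inhba came under 2-fold, at 0.95, 0.93, 0.62 and 0.41. A UMI of those mural genes was in 37 of 130 TAC members (28.5%) and 107 of 650 matched cells (16.5%), and in 2 of 29 and 18 of 145 in sham. The 10 smooth muscle markers summed to 85.4 against 72.0 CPM, with Cnn1, Actg2 and Casq2 at 0, and 996 CPM in the mural gate. In sham members 8 of 12 pericyte markers were at 0, Notch3, Kcnj8 and Cspg4 among them, and smooth muscle markers summed to 151 against 52.5 CPM from 27 and 47 UMIs. Macrophage markers summed to 44.3 against 165 CPM in TAC and endothelial markers to 70.8 against 62.8 CPM. Mesothelial markers summed to 122 against 89.1 CPM, and all 234 UMIs lay in 1 TAC member. Cell cycle genes summed to 82.3 against 20.6 CPM in TAC, and to 27.9 CPM without the 1 member that held 105 of 158 UMIs. Schwann, valve interstitial and cardiomyocyte lists summed lower in TAC members than in matched cells, at 670 against 878, 7.29 against 33.8 and 34.4 against 46.1 CPM, the first carried by Gpm6b. A doublet caller, Scrublet, called 0 of 159 members, 5 of 650 TAC and 2 of 145 sham matched cells. Among all cells that passed it called 146 of 8000 in TAC and 70 of 7964 in sham. Both are under the expected rate of 0.07 that it was given, so doublets can have been missed. A UMI of the 10 macrophage or endothelial genes was in 39.2% of TAC members and 38.5% of matched cells, and in 13.8% and 20.0% in sham.

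**Figure D5:**
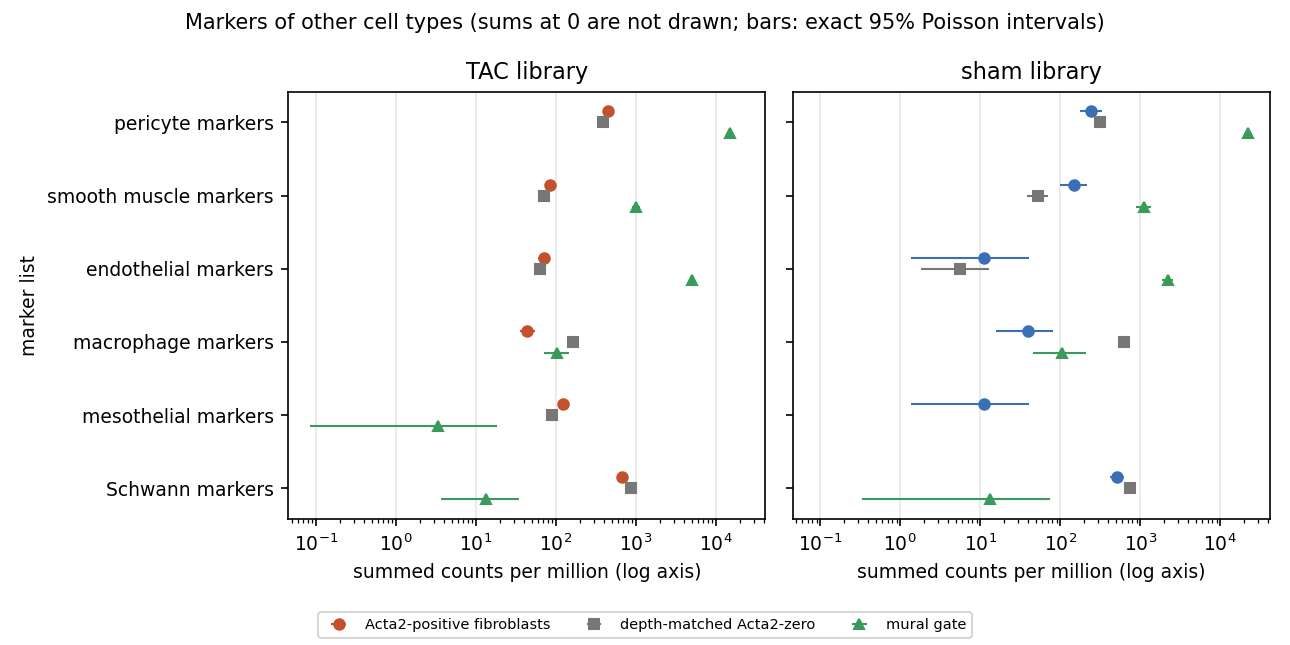
Summed markers of 6 other cell types in CPM (log axis), TAC library on the left and sham library on the right. Circles (red TAC, blue sham) are Acta2-positive fibroblasts, grey squares depth-matched Acta2-zero fibroblasts, green triangles the mural gate, bars exact 95% Poisson intervals, and sums at 0 are not drawn. Pericyte markers lie at 454 CPM in TAC members and 15273 CPM in the mural gate.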

How the data were processed

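Single-cell RNA libraries of heart non-cardiomyocytes, 1 sham and 1 TAC, were analysed from the authors' deposited filtered matrices of whole-number UMI counts per gene and cell. These counts came from Cell Ranger 3.1.0, per the file headers, and mm10 and Seurat are named in the submitters' processing notes; what Seurat was used for is not given in the sources used here. Cells with at least 500 genes, at least 1000 UMIs and at most 15% mitochondrial UMIs were kept, and doublets were kept in the main values. UMIs were summed over members and over comparison cells, 5 per member and nearest in total UMIs, and scaled to CPM. Ratios of CPM have exact conditional 95% intervals, log2 ratios are of CPM + 1, and levels have exact Poisson intervals; shares have exact Clopper-Pearson intervals. All cover counting error only. CPM was not scaled by gene length, so levels of different genes were not compared. Genes at 50 CPM or more in either sum were counted, and called past 2-fold, since 1 library per group allows no test.

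The members and gene lists were chosen with earlier results of these data known. Genes were named by size of log2 ratio, 12 each way in TAC, 6 in sham, 10 for TAC against sham members and 5 for the difference between libraries, with at least 30 UMIs and, for all but the last, seen in 10% of cells. Up to 6 per list, the contractile and actin genes and all cell type markers were also named. Other genes named (Pcsk7 and Gm48529 for overlap) were taken from the annotation, and Myl9 and Notch3 were picked out of their lists after their values were seen. The macrophage gate needed a Ptprc UMI and 5 UMIs of Csf1r and complement genes, the endothelial gate 2 of Pecam1 and 2 of Cdh5 and Kdr, and the mural gate 3 of Myh11 and Rgs5, all under the fibroblast threshold of 0.3%. Of 31053 gene identifiers, 30934 matched GENCODE vM21. Promoters came from RefSeq, GRCm38.p6. Alternatives moved the Acta2 minimum, the gates, the gene filter, the pseudocount, doublets called by Scrublet and the comparison cells. Python 3.11.15, NumPy 2.4.6, SciPy 1.17.1, pandas 2.3.3, Scanpy 1.11.5 and matplotlib 3.10.9 were used, and the sums and ratios were tested on simulated data.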

Additional observations from a re-analysis of the deposited data

Results flagged for a closer look

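Ccl2 was higher in sham members than in their matched cells (log2 ratio 5.41) and lower in TAC members (-1.15), a difference of -6.56, and was picked out because the libraries pointed opposite ways. The difference was not tested, with 1 library per group. The 3 highest sham members held 296, 116 and 108 of 645 UMIs, and 1 TAC member held 67 of 118. Without the highest cell the sham log2 ratio was 4.59. Without cells holding macrophage or endothelial UMIs the TAC log2 ratio was 0.030, near no difference.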

How the results depend on the processing

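No paired analysis was possible because each group is 1 library. With an Acta2 minimum of 1 UMI, members were 2.15% of sham and 8.04% of TAC fibroblasts, and genes past 2-fold were 1 higher and 1 lower in TAC, 11 and 21 in sham, and 145 and 96 between TAC and sham members. With a minimum of 3 UMIs the shares were 0.225% and 1.36%, 29 genes were lower in TAC, 405 and 370 higher and lower in sham, and 346 and 425 between libraries. The TAC share was 1.71% without cells holding any of the 9 mural genes that include Notch3, and thinning gave 0.298% and 1.10%. A filter at 100 CPM left 9 genes higher in TAC, 84 and 50 in sham and 102 and 86 between libraries, and no CPM filter gave 251 and 330, 1072 and 2107, and 2834 and 1109. A pseudocount of 10 CPM gave 9 higher in TAC and 143 in sham. With 1 comparison cell per member 29 were lower in TAC, and 401 and 314 were higher and lower in sham, where Mmp3 had a log2 ratio of 0.89.

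Alternatives chosen after seeing the data were 3. Leaving out each gene's highest cell gave 8 higher in TAC, 102 higher in sham and 141 lower between libraries. With no limit on Comp and Thbs4 the TAC share was 4.24% and 9 genes were lower. Without cells holding macrophage or endothelial UMIs, Ccl2 in TAC had a log2 ratio of 0.030 and Lyz2 in sham 0.20. The cause of these shifts was not tested. Of 25 named genes past 2-fold in TAC, 22 came under it in some alternative, all but Tagln, Nes and Myl9. Cnn2 and Tpm2 did so with an Acta2 minimum of 1 UMI alone, at log2 ratios of 0.76 and 0.59. In sham 9 of 16 came under it, and between libraries 0 of 20. The 29 sham members, with 179131 UMIs in all, limit every sham ratio.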

Other observations

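Other gene groups were counted the same way in TAC members against matched cells, with no test between groups. The median log2 ratio over all genes was 0.06. Adventitial fibroblast genes were 0 of 7 past 2-fold and 7 above 0, with a median of 0.38 and Cd248, endosialin, the highest at a log2 ratio of 0.63. Integrins were 0 of 7 past 2-fold and 6 above 0, led by Itga5, a fibronectin receptor subunit, at 0.49 and Itgav at 0.41. Glycolysis genes were 0 of 10 past 2-fold and 9 above 0, with a median of 0.23 and Pgk1 the highest at 0.41. Immediate early genes were 0 of 15 past 2-fold and 4 above 0, with Fosb, Egr1 and Fos at -0.71, -0.50 and -0.49. Heat shock genes had a median of 0.07.

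Interferon response genes had a median of -0.21 in TAC, with Isg15 the lowest at -0.89, and 3 of 4 were past 2-fold in sham members. A single sham member held 76 of the 269 interferon UMIs. Without it the list summed to 1114 CPM, against 798 CPM in matched cells. Gdf15, a stress-induced TGF-beta family ligand, gave 19 UMIs in sham members and 0 in their matched cells. Among the 16 genes of the serum response factor, MRTF and YAP axis 5 were measured in TAC, 0 past 2-fold and 4 above 0, and Myocd, the smooth muscle co-activator, gave 0 UMIs in members of both libraries.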
